A study of Mus musculus with 6 samples.

Results

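The transforming growth factor beta (TGF-beta) and bone morphogenetic protein (BMP) signalling genes were examined in fibro-adipogenic progenitors, the mesenchymal cells of skeletal muscle that give rise to fibroblasts and adipocytes. Members were chosen by gene symbol, as ligands, latent binding proteins, receptors, secreted antagonists, SMADs and their inhibitors and ID genes of the 2 branches, and 69 of the 41388 genes in the count table matched. Primary cells from muscle of wild-type male mice were grown in medium with 10% serum and 2.5 ng/mL human FGF. Vehicle cells received vehicle, and treated cells received 500 nM prostaglandin E2 (PGE2), once a day for 2 days. PGE2 is a lipid signal of inflamed and injured tissue whose receptors change cyclic AMP or calcium in the cell. Each group had 3 numbered libraries of polyadenylated RNA. Whether a number stands for its own mouse or culture is not stated, and the spread that p-values rest on may therefore be technical.

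In this pathway a dimeric ligand brings together type II and type I receptor kinases, and the type I receptor phosphorylates SMAD proteins that carry the signal to the nucleus. TGF-beta and activin ligands act mainly through SMAD2 and SMAD3. BMPs and some, but not all, of the GDF ligands act mainly through SMAD1, SMAD5 and SMAD9. SMAD4 is the common partner of both sets. Latent binding proteins store TGF-beta in the matrix, and secreted antagonists such as follistatins, noggin and chordin hold ligands away from their receptors. In muscle, TGF-beta is known to drive progenitors toward matrix-producing fibroblasts, and BMPs toward bone and cartilage fates.

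Totals were between 21006044 counts, in vehicle library 2, and 52730962 counts, in PGE2 library 2. The marker Pdgfra of the labelled cell type stood between 1120 and 1460 CPM (counts-per-million, scaled to library size) in the 6 libraries, the leukocyte gene Ptprc was at 0 in all of them, and the endothelial gene Pecam1 was at most 0.254 CPM. Of 9 progenitor markers 3 rose and 2 fell in the paired fit described below (edgeR, Benjamini-Hochberg). Markers of myogenic cells were present: of 10 such genes 8 were tested, 6 fell in that fit, and 3 did with a correction for transcript length. Their summed level was 40.4 to 188 CPM in vehicle libraries and 14.7 to 121 CPM in PGE2 libraries. No myogenic marker was at 0 in all libraries, but Pax7 and Myf5, which mark muscle stem cells, were at most 0.116 CPM. Library 1 of each group held the most myogenic RNA, with Myog at 20.9 and 11.5 CPM against at most 3.74 CPM elsewhere. Summed leukocyte markers were at 8.57 to 9.22 CPM with vehicle and 11.5 to 12.3 CPM with PGE2 (2 of 3 tested rose), endothelial markers at 21.2 to 47.2 and 19.0 to 33.8 CPM (1 of 5 fell), pericyte and smooth muscle markers at 607 to 702 and 578 to 651 CPM (4 of 8 fell). Schwann cell markers were at 6.91 to 8.09 and 4.24 to 5.1 CPM (2 of 3 fell), with Sox10 at 0 throughout. With the length correction 1 leukocyte marker rose, and 1 endothelial, 1 pericyte and smooth muscle and 2 Schwann cell markers fell. Of the 9 progenitor markers 5 rose and 2 fell with it. Of all tested genes 14.4% were called in the paired fit and 16.8% with that correction. Des was in both the myogenic and the pericyte list. The part of other cells in the results below was not tested, and fewer cells of a type cannot be told apart from less RNA per cell.

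Of the 69 genes 57 had enough counts to be tested. The 12 that did not were the ligands Bmp7, Bmp8b, Bmp10, Bmp15, Gdf1, Gdf2, Gdf3, Gdf7, Inhbc and Inhbe, myostatin (Mstn) and the type I receptor Acvr1c. They had at most 10 counts in any library, and Bmp10, Gdf1, Inhbc and Inhbe had none. A count of 0 allows up to 3 counts, or 0.0569 to 0.143 CPM depending on the library, for counting error only.

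Without pairing, none of the 57 members passed (edgeR quasi-likelihood test, Benjamini-Hochberg adjusted p under 0.05), while 0.342% of all 15186 tested genes did. At an unadjusted p under 0.05 there were 13 of 57 members (22.8%), against 20.1% of all tested genes. Limma-voom called no member and 0.0856% of all genes. DESeq2 called 5 members against 6.14% of all genes, with Fstl3, Id3 and Tgfb1i1 higher (background 2.86%) and Tgfb2 and Bmp2 lower (background 3.27%). Leaving out vehicle library 1 brought Fstl3 past the threshold in edgeR (adjusted p = 0.0292). The fit with the library number as a block, called the paired fit here, called 13 of 57 members (22.8%), 9 higher and 4 lower, against 14.4% of all tested genes, 6.91% higher and 7.51% lower. All 13 kept their direction in every alternative tried. With a correction for transcript length added, all 13 remained past the threshold and 6 more passed, for 19 members against 16.8% of all genes, 14 higher (background 8.82%) and 5 lower (background 7.97%). Over 15098 tested genes with a known length the paired log2 fold change fell with transcript length (Spearman's rho = -0.41, across genes of the same 6 libraries), and over the 57 members rho was -0.178. The part of this trend in the results was not tested beyond the correction. The length correction without the block called no member and 0.0988% of all genes.

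The 13 members spread over most roles, and 12 are described here. Those of the 12 that rose were the antagonists Fstl3 and Chrd, the ligand Gdf6, the type I receptors Acvr1b and Bmpr1b, the transcription regulator Id3, the protease Bmp1 and the adaptor Tgfb1i1. Those that fell were the ligands Tgfb2 and Bmp2, the latent binding protein Ltbp1 and the BMP-branch mediator Smad9. Changes were modest, with absolute log2 fold changes from 0.31 to 1.13, and Bmp2 was the member past 2-fold. Groups did not overlap for 9 of the 13, and over all 57 members for 12 (21.1%), against 25.9% of all tested genes. All 3 pairs moved in 1 direction for 27 members (47.4%), against 52.1% of all tested genes. The median log2 fold change of the 57 was 0.037, with 30 above 0, beside a median of 0 over all tested genes.

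**Figure D1:**
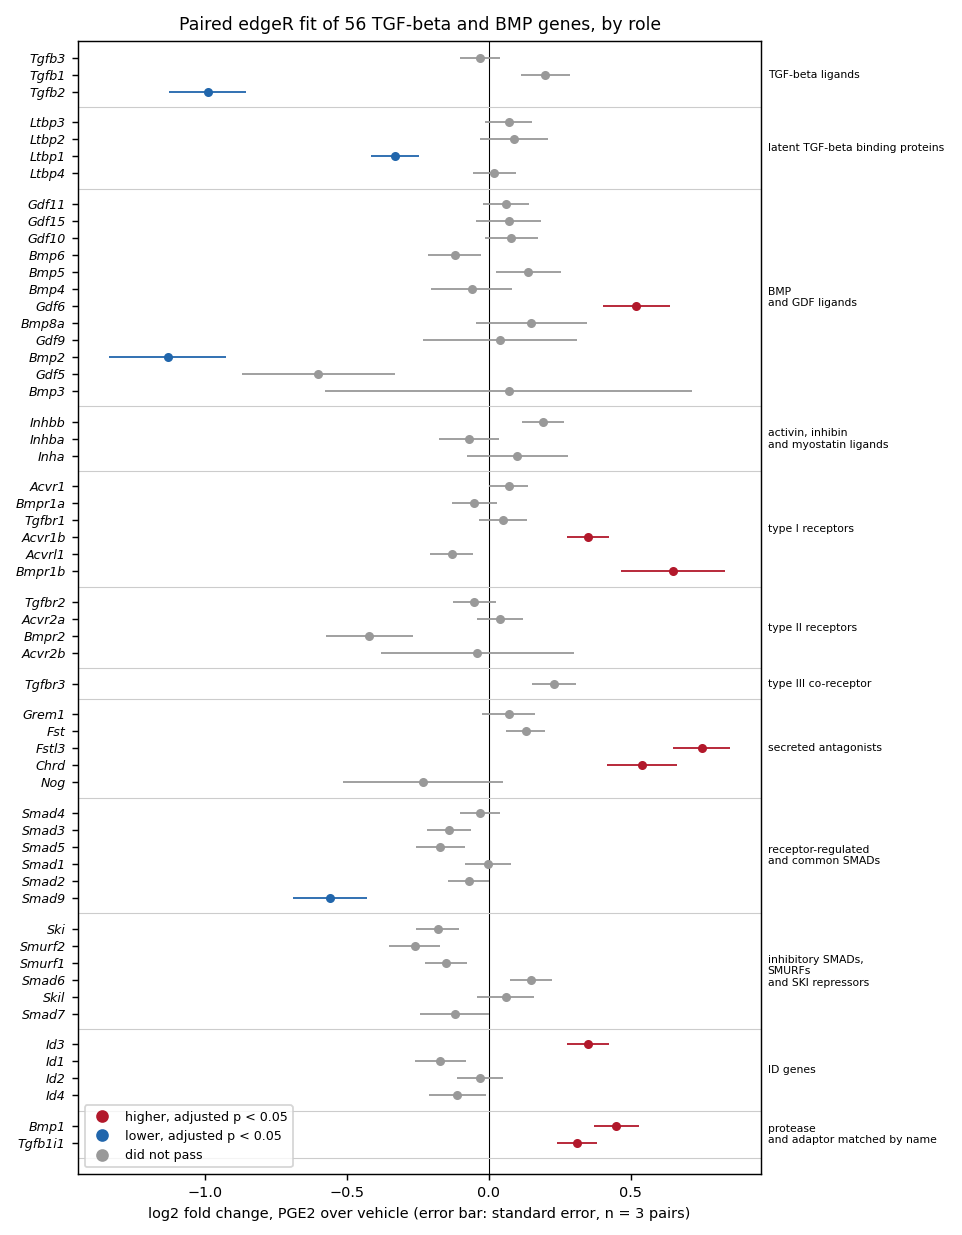
Log2 fold change of PGE2 over vehicle from the paired edgeR fit (x axis) for 56 of the 57 tested members (y axis, grouped by role and ordered by level), with standard errors over 3 pairs. The 8 drawn members that rose are red and the 4 that fell are blue; the others lie within 0.3 of 0, except Gdf5 (-0.60) and Bmpr2 (-0.42).

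Promoter sequences of RefSeq (build GRCm38.p6, 250 bases before to 50 after the start) matched 8 of the 13 members, with several starts for Bmpr1b and Ltbp1. They were searched on both strands for 4 motifs, because PGE2 can act through cyclic AMP and these genes belong to SMAD pathways. The full cyclic AMP response element TGACGTCA occurred in 1 of the 8, Ltbp1, in 1 of the 49 members with a promoter sequence, and in 2.03% of 27025 gene symbols (1.79% of 32851 promoters). Its shorter core TGACG, which also lies inside the full element, occurred in 5 of the 8, Chrd, Id3, Ltbp1, Smad9 and Tgfb2, in 11 of the 49, and in 23.0% of symbols (20.8% of promoters). The GC-rich element GGCGCC, a motif bound by BMP-branch SMADs, occurred in 3 of the 8, Acvr1b, Chrd and Smad9, in 15 of the 49, and in 13.4% of symbols (11.9% of promoters). The SMAD palindrome GTCTAGAC occurred in 0 of the 8, 1 of the 49 and 0.248% of symbols (0.213% of promoters). Stretches upstream of the start are shown for 4 of these members, with the motif in capitals, 5′ to 3′ on the gene's strand. GGCGCC stood before Chrd, which rose, and before Smad9, which fell. The cyclic AMP motifs are shown before Ltbp1 and Tgfb2, which both fell. The core TGACG also lay upstream of the start of Id3, which rose.
Ltbp1, chr17:75005432-75005487, plus strand, 73 bases upstream: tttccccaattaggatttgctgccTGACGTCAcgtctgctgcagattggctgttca
Tgfb2, chr1:186706033-186706085, minus strand, core on the other strand, 72 bases upstream: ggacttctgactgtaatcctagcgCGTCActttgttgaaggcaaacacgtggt
Chrd, chr16:20732900-20732953, plus strand, 203 bases upstream: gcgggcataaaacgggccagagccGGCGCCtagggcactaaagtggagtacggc
Smad9, chr3:54755507-54755560, plus strand, 51 bases upstream: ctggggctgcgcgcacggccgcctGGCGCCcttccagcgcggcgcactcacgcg
A match of letters is a description of the sequence, not a site shown to be bound.

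The TGF-beta ligands differed in both level and response. Per kilobase of the longest annotated transcript, which allows genes to be compared, Tgfb3 stood highest in vehicle cells at 33.7 ± 6.55 CPM per kilobase (SD, n = 3), followed by Tgfb1 at 12.9 ± 0.63 and Tgfb2 at 6.83 ± 1.41. Tgfb2 (ENSMUSG00000039239, chromosome 1, 186622792 to 186705989 of mm10) was at 27.0, 41.1 and 36.6 CPM in vehicle libraries 1 to 3 and at 15.6, 15.0 and 22.0 CPM in PGE2 libraries 1 to 3. Every PGE2 library was below every vehicle library, and the log2 fold change was -0.99 ± 0.135 (SE; edgeR adjusted p = 0.00235 paired, 0.0962 unpaired). Within pairs the log2 difference was -0.79, -1.45 and -0.73, so the fall was steepest in pair 2. Tgfb3 was at 90.1, 118 and 134 CPM with vehicle and 84.7, 111 and 142 CPM with PGE2, a difference of -0.03 ± 0.0708 that did not pass, and it followed the library number rather than treatment. Tgfb1, the isoform most often studied in fibrosis, was at 35.0, 32.0 and 32.4 CPM with vehicle and 35.5, 37.3 and 41.7 CPM with PGE2. Its groups did not overlap, but at 0.20 ± 0.0866 it did not pass (edgeR adjusted p = 0.143 paired).

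The latent binding proteins tether TGF-beta complexes to the matrix. Ltbp3 was the most abundant at 102 ± 7.58 CPM per kilobase in vehicle cells, Ltbp1 (38.0 ± 10.4) and Ltbp2 (33.9 ± 8.4) did not differ beyond their spread, and Ltbp4 was at 12.8 ± 2.41. Ltbp1 (chromosome 17, 75005568 to 75392512) was at 319, 260 and 181 CPM with vehicle and 245, 184 and 166 CPM with PGE2. The groups overlapped because vehicle library 3 was as low as PGE2 libraries, yet each pair fell, by 0.38, 0.50 and 0.12 on the log2 scale, and the paired change was -0.33 ± 0.0844 (edgeR adjusted p = 0.0268). With the length correction it was -0.18 (edgeR adjusted p = 0.0463), and it did not pass without pair 1 (0.0932) or pair 2 (0.257). Ltbp3 was at 548, 631 and 568 CPM with vehicle and 560, 628 and 640 CPM with PGE2, at 0.07 ± 0.0812. With the length correction Ltbp3 (0.19, just inside the threshold) and Ltbp2 (0.25, edgeR adjusted p = 0.0479; 0.09 without it) passed as higher, so 3 of the 4 were called there, 2 of them higher.

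Among the BMP and GDF ligands, 12 of 20 were tested. Gdf11 had the highest level per kilobase in vehicle cells (8.93 ± 0.352), followed by Gdf15 (5.31 ± 2.07), Gdf10 (4.00 ± 1.86), Bmp6 (3.96 ± 0.421), Bmp5 (3.29 ± 0.446) and Bmp4 (2.60 ± 0.812), and neighbours in that order from Gdf15 down did not differ beyond their spread. The value of Bmp6 is uncertain because it shares exon sequence with the abundant Txndc5 on the other strand (14828 to 41570 counts). Bmp2, an inducer of bone formation, was scarce, with 129, 38 and 77 counts in vehicle libraries 1 to 3 and 61, 40 and 33 counts in PGE2 libraries. As 3.00, 1.80 and 1.78 CPM against 1.31, 0.775 and 0.897 CPM the groups did not overlap, and pairs fell by similar amounts of 1.16, 1.16 and 0.95 on the log2 scale. The paired change was -1.13 ± 0.206 (edgeR adjusted p = 0.00635; 0.134 unpaired), the largest of the 57 in size. Bmp2 lies on chromosome 2 at 133552159 to 133562885.

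Gdf6, a ligand of joint and tendon development on chromosome 4 (9844372 to 9862345), moved the other way. It was at 5.28, 5.58 and 6.45 CPM with vehicle and 7.82, 7.33 and 9.65 CPM with PGE2, with no overlap, and rose by 0.52 ± 0.117 (edgeR adjusted p = 0.017 paired, 0.15 unpaired). It missed the threshold without pair 1 (0.0541). Gdf5, its close relative, was at -0.60 ± 0.269 and did not pass. Gdf11 was at 37.9, 35.5 and 35.4 CPM against 35.6, 39.4 and 38.2 CPM, with a change of 0.06 ± 0.0813. The other 8 tested ligands of this role (Bmp3, Bmp4, Bmp5, Bmp6, Bmp8a, Gdf9, Gdf10 and Gdf15) had fold changes from -0.12 to 0.15, and none passed.

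Of the activin and inhibin genes, Inhbb, which encodes the subunit of activin B, was highest at 33.5 ± 4.62 CPM per kilobase, with Inhba, the subunit of activin A, at 7.52 ± 3.29 and the inhibin subunit Inha at 1.55 ± 0.301. Inhbb was at 122, 144 and 161 CPM with vehicle and 150, 149 and 187 CPM with PGE2. The groups overlapped, each pair was higher with PGE2, and the change of 0.19 ± 0.074 did not pass (edgeR adjusted p = 0.115 paired); with the length correction it was 0.23 and passed (0.0173). Inhba and Inha were at -0.07 and 0.10. None of the 3 passed in the paired edgeR fit without that correction or with DESeq2 and the block. In that edgeR fit 1 had an unadjusted p under 0.05, beside 4715 of all 15186 tested genes.

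Secreted antagonists had 3 of 6 members higher and none lower in the paired fit, beside 6.91% of all genes higher, and 2 of the 3 are described here. Without pairing none of the 6 passed in edgeR or limma-voom, 3 had an unadjusted edgeR p under 0.05, and DESeq2 called 1. Fstl3 (ENSMUSG00000020325, chromosome 10, 79777272 to 79782630) encodes a follistatin-like protein that binds activins and myostatin. It was at 22.6, 16.4 and 15.7 CPM with vehicle and 31.8, 30.0 and 29.4 CPM with PGE2, so the PGE2 libraries lay close together and above all vehicle libraries. The change was 0.75 ± 0.0994, a ratio of 1.68 (edgeR adjusted p = 0.00117 paired, 0.0918 unpaired), and with any pair left out it stayed past the threshold at 0.66 to 0.89. An exon of Fstl3 overlaps Prss57 on the other strand, which had 12 to 26 counts, and exons of Chrd overlap Thpo, with 7 to 32 counts.

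Chrd encodes chordin, which binds BMPs and is cleaved by the Bmp1 protease. It was at 5.63, 8.0 and 8.87 CPM with vehicle and 9.24, 12.7 and 10.6 CPM with PGE2, without overlap, at 0.54 ± 0.122 (edgeR adjusted p = 0.0175 paired, 0.197 unpaired); it did not pass without pair 1 (0.0604). Grem1, a BMP antagonist and the most abundant of the 6 at 120 ± 33.9 CPM per kilobase in vehicle cells, was at 658, 440 and 395 CPM with vehicle and 597, 462 and 476 CPM with PGE2. It was high in both libraries numbered 1 and did not pass at 0.07 ± 0.092. Follistatin (Fst) was at 0.13 ± 0.0687, and noggin (Nog), at 0.532 ± 0.242 CPM per kilobase, at -0.23 ± 0.282; neither passed.

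**Figure D2:**
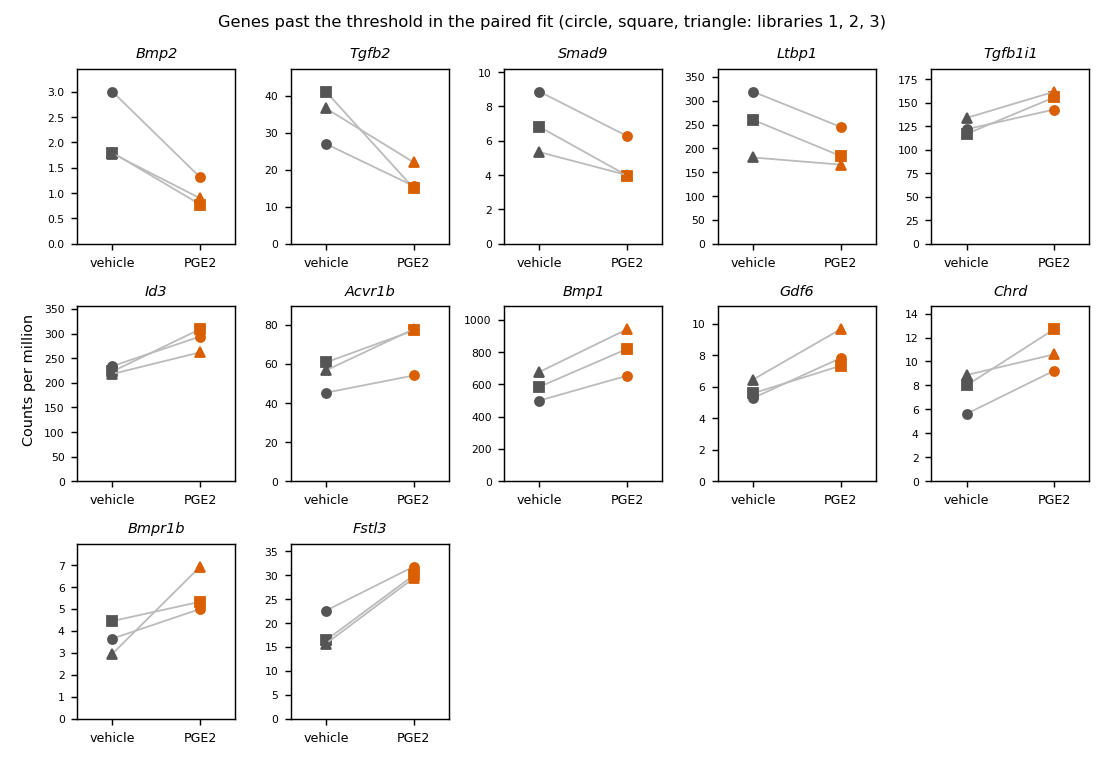
CPM (y axis, from 0) in vehicle and PGE2 libraries (x axis) for 12 of the 13 members past the threshold in the paired fit, with grey lines joining same-numbered libraries. Every line runs in its gene's direction, and for Ltbp1, Smad9, Acvr1b and Bmp1 the groups overlap although each pair moves the same way.

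The type I receptors were led by Acvr1 (25.7 ± 2.14 CPM per kilobase in vehicle cells), Bmpr1a (22.5 ± 1.98) and Tgfbr1 (16.4 ± 1.49), with Acvr1b (12.3 ± 1.82) and Acvrl1 (12.2 ± 1.02) level with each other and Bmpr1b far lower (0.689 ± 0.139). Acvr1b, an activin receptor on chromosome 15 (101174067 to 101213684), was at 45.3, 60.8 and 56.7 CPM with vehicle and 54.1, 77.1 and 77.8 CPM with PGE2. Library 1 was low in both groups, so the groups overlapped, and pairs rose by 0.26, 0.34 and 0.46 on the log2 scale (0.35 ± 0.0752, edgeR adjusted p = 0.0134 paired, 0.283 unpaired). Bmpr1b, a BMP and GDF receptor known from cartilage, was at 3.65, 4.45 and 2.96 CPM against 5.00, 5.33 and 6.93 CPM. Its groups did not overlap, but the rise of 0.65 ± 0.184 (edgeR adjusted p = 0.0402) was uneven over pairs at 0.45, 0.26 and 1.22, and it did not pass without pair 3 (0.139). Acvr1 was at 76.9, 90.8 and 85.8 CPM with vehicle and 80.1, 93.7 and 92.7 CPM with PGE2, at 0.07 ± 0.0685. Tgfbr1, Bmpr1a and Acvrl1 had fold changes from -0.13 to 0.05 and did not pass.

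No type II receptor passed in the paired edgeR fit. There 1 of 4 had an unadjusted p under 0.05, beside 4715 of all 15186 tested genes. Tgfbr2, the TGF-beta receptor and the most abundant of the 4, was at 198, 264 and 298 CPM with vehicle and 187, 237 and 318 CPM with PGE2, a change of -0.05 ± 0.077 within a range that followed the library number. Bmpr2 was at -0.42 ± 0.153 (edgeR adjusted p = 0.116 paired), with pairs at -0.66, -0.69 and 0.10, so pair 3 went against the others. DESeq2 with the same block called Bmpr2 lower, as 1 of 14 members it called against 12.7% of all genes. Bmpr2 has one of the longest transcripts of the members, at 12899 bases, and its change was -0.14 with the length correction. The activin receptors Acvr2a (0.04) and Acvr2b (-0.04) did not pass, and exons of Acvr2a overlap Orc4 on the other strand (712 to 1949 counts). The co-receptor Tgfbr3, betaglycan, was at 274, 348 and 291 CPM with vehicle and 299, 407 and 369 CPM with PGE2, higher in each pair, at 0.23 ± 0.0773 (edgeR adjusted p = 0.0697 paired); it was at 0.37 with the length correction, where it passed (0.000737).

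Of the 6 SMADs that carry the signal Smad9 fell in the full paired fit and the others did not pass there. Smad4 was highest at 28.4 ± 1.07 CPM per kilobase in vehicle cells, then Smad3 (22.3 ± 2.31), and it was at 92.0, 99.1 and 96.8 CPM with vehicle and 85.8, 95.4 and 101 CPM with PGE2. Fold changes of Smad1, Smad2, Smad3, Smad4 and Smad5 were from -0.17 to -0.0031 with standard errors from 0.0707 to 0.0871, and none passed. The groups did not overlap for Smad2. Smad9 (chromosome 3, 54755582 to 54801257), the least abundant at 1.30 ± 0.33 CPM per kilobase, was at 8.86, 6.81 and 5.34 CPM with vehicle and 6.27, 3.97 and 4.00 CPM with PGE2. PGE2 library 1 lay above vehicle library 3, so the groups overlapped, but each pair fell, and the change was -0.56 ± 0.13 (edgeR adjusted p = 0.0193 paired, 0.266 unpaired), which did not pass without pair 2 (0.0983).

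None of the 6 negative regulators inside the cell passed in the paired edgeR fit or with DESeq2 and the block. In that edgeR fit 2 had an unadjusted p under 0.05, beside 4715 of all 15186 tested genes. Ski, a repressor of SMAD-driven transcription, was the most abundant, at 217, 257 and 227 CPM with vehicle and 186, 211 and 223 CPM with PGE2 (-0.18 ± 0.0771). The ubiquitin ligases Smurf1 (-0.15) and Smurf2 (-0.26, edgeR adjusted p = 0.074 paired), the inhibitory Smad7 (-0.12) and Skil (0.06) did not pass; with the length correction Skil was at 0.22 and passed as higher (edgeR adjusted p = 0.0446). The inhibitory Smad6 was at 0.15 ± 0.0746, with groups that did not overlap (edgeR adjusted p = 0.205 paired). Without pair 3 the paired fit also called Ski, Smurf1, Smurf2, Smad7, Smad3, Smad5, Bmpr1a and Bmpr2 lower. Inhbb and Tgfbr3 were called higher there too. All of these were among 21 of 57 tested members called there, 9 higher and 12 lower, when 5097 of all genes were called. Without pair 1 the fit called 10 of 56 tested members and 1372 of all genes. Without pair 2 it called 9 of 58 tested members and 1160 of all genes. Tgfb2, Bmp2, Fstl3, Acvr1b and Bmp1 were past the threshold in the full paired fit and with each pair left out. Without pair 2, Acvr1b (edgeR adjusted p = 0.0469) and Bmp1 (0.0488) were only just inside it.

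ID proteins hold back other transcription factors, and their genes are direct targets of BMP signalling. Id3 (chromosome 4, 136143497 to 136145755) had the highest level per kilobase of the 57 members, at 176 ± 6.49 with vehicle and 226 ± 18.4 with PGE2. It was at 234, 223 and 218 CPM with vehicle and 294, 309 and 262 CPM with PGE2, with no overlap and a change of 0.35 ± 0.0748 (edgeR adjusted p = 0.013 paired, 0.114 unpaired). With the length correction the change was 0.20 (0.0314), and without pair 2 it did not pass (0.152). The other ID genes did not rise with it. Id1 was at 46.9, 27.6 and 30.2 CPM with vehicle and 44.1, 26.8 and 23.0 CPM with PGE2, at -0.17 ± 0.0888, and with the length correction it passed as lower (-0.34, edgeR adjusted p = 0.00264). Id2 was at -0.03 and Id4 at -0.11, and neither passed in either setting.

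The symbol rule also took in a protease and an adaptor. Bmp1 is no ligand but a metalloprotease that trims procollagens and cleaves chordin, and over all 6 libraries only Id3 had a higher level per kilobase. In vehicle cells Bmp1, at 109 ± 16.5 CPM per kilobase, and Grem1, at 120 ± 33.9, did not differ beyond their spread. On chromosome 14 (70474558 to 70520234), Bmp1 was at 500, 585 and 677 CPM with vehicle and 654, 820 and 942 CPM with PGE2. The groups overlapped, but pairs rose evenly by 0.39, 0.49 and 0.48 on the log2 scale (0.45 ± 0.0804, edgeR adjusted p = 0.0057 paired, 0.191 unpaired). Tgfb1i1, a focal adhesion adaptor also called Hic-5 that TGF-beta is known to induce, was at 122, 117 and 134 CPM with vehicle and 143, 156 and 162 CPM with PGE2, at 0.31 ± 0.0706 (edgeR adjusted p = 0.0186 paired, 0.133 unpaired). It did not pass without pair 2 (0.208).

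**Figure D3:**
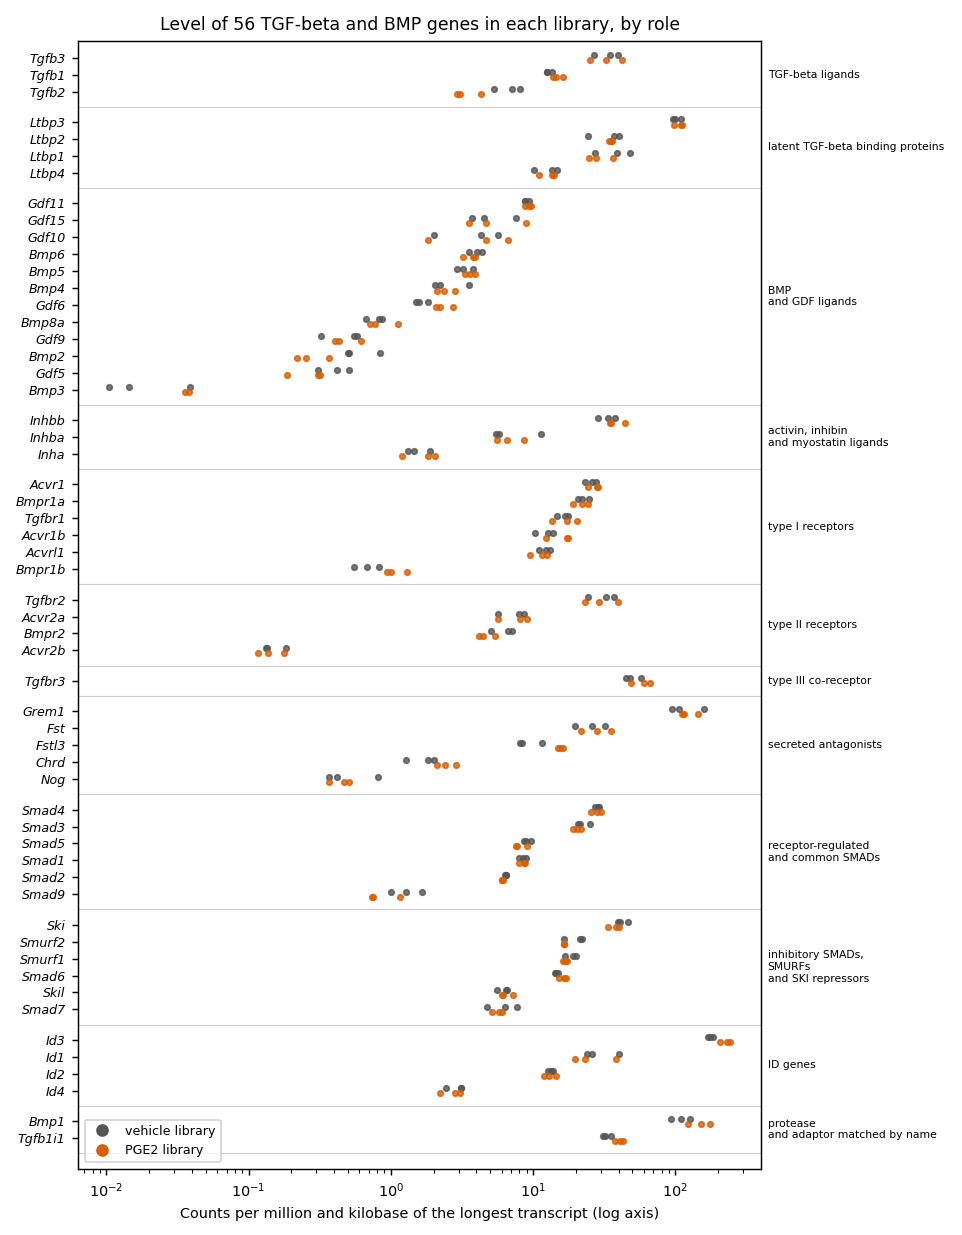
Level of 56 of the 57 tested members in each library, as CPM per kilobase of the longest annotated transcript (x axis, log scale), grouped by role (y axis). Id3, Bmp1, Grem1 and Ltbp3 stand above 90 in every library, and the level of 0 of Bmp3 in PGE2 library 3 is not drawn.

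The variance of each tested member was divided between library number and treatment. Of the 57, 38 had more of the variance of log2 CPM between numbers than between treatments. Numbers have 3 levels and treatment 2, so a larger share falls between numbers even with no effect of either. The same count over all tested genes was not made, so the 38 cannot be read as a trait of the members. The median share between numbers was 57.6%, against 38.6% over all tested genes. Gdf10, a BMP-related ligand, was at 10.5, 22.5 and 29.6 CPM with vehicle and 9.54, 24.4 and 34.6 CPM with PGE2, so libraries 1 stood lowest in both groups and 98.6% of its variance lay between numbers. Gdf15, a stress-induced ligand, ran the other way at 11.8, 7.0 and 5.78 CPM and 13.8, 7.23 and 5.47 CPM. Inhba (72.3, 34.8 and 37.1 against 55.4, 35.5 and 41.9 CPM) was likewise highest in libraries 1, while Fst (57.6, 75.3 and 93.8 against 63.1, 81.8 and 103 CPM) was lowest there. Over the 57 members, deviations from the group means correlated at 0.866 between libraries numbered 1, 0.191 between those numbered 2 and 0.699 between those numbered 3. Vehicle library 2 correlated more with PGE2 library 3, at 0.38. These correlations are over genes of the same libraries and describe them only.

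**Figure D4:**
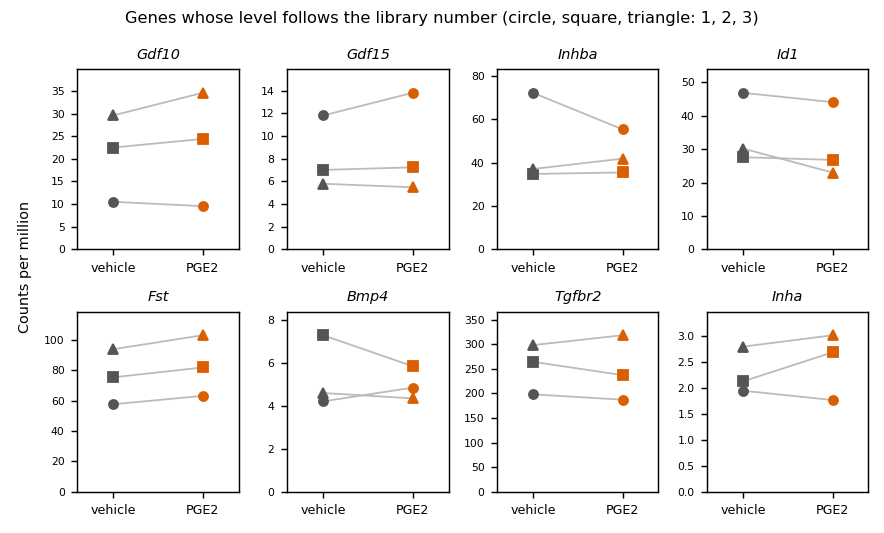
CPM (y axis, from 0) with vehicle and PGE2 (x axis) for the 8 members with the widest range among those with over 80% of variance between library numbers, chosen after their values were seen. Grey lines join same-numbered libraries. In Gdf10, Gdf15, Inhba, Fst, Tgfbr2 and Inha the 3 numbers keep the same order in both groups, and in Id1 and Bmp4 they do not. Gdf10 spans 10.5 to 29.6 CPM within vehicle.

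Genes known to respond to TGF-beta were examined as a separate list of 18, all tested. In the paired fit 9 rose and 4 fell, 72.2% of the list against 14.4% of all genes, and without pairing 1 rose, against 0.342%. Leaving out any of vehicle libraries 2 or 3 or PGE2 libraries 2 or 3 left no gene of this list past the threshold without pairing. The AP-1 gene Junb was at 110, 147 and 147 CPM with vehicle and 172, 232 and 202 CPM with PGE2, with no overlap, and rose by 0.59 ± 0.0725 (edgeR adjusted p = 0.000788 paired, 0.122 unpaired). The feedback regulator Pmepa1 (0.50 ± 0.0724) and the transcription factor Snai1 (0.50 ± 0.0795) rose in the paired fit as well, and their groups did not overlap. Ccn2 (0.41, listed under its older symbol), Nox4 (0.38) and Bhlhe40 (0.24) rose too, with overlapping groups for Ccn2 and Nox4. The actin gene Acta2 (0.85) and Tagln (0.91) rose too, but did not pass with the length correction (0.75 and 0.78, edgeR adjusted p = 0.196 and 0.198). Genes of the same list that fell were Postn (-0.58), Snai2 (-0.49), Klf10 (-0.42) and Cdkn2b (-0.38), so the list did not move one way. The list was chosen with results of these libraries known, so it is not independent evidence of direction.

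**Figure D5:**
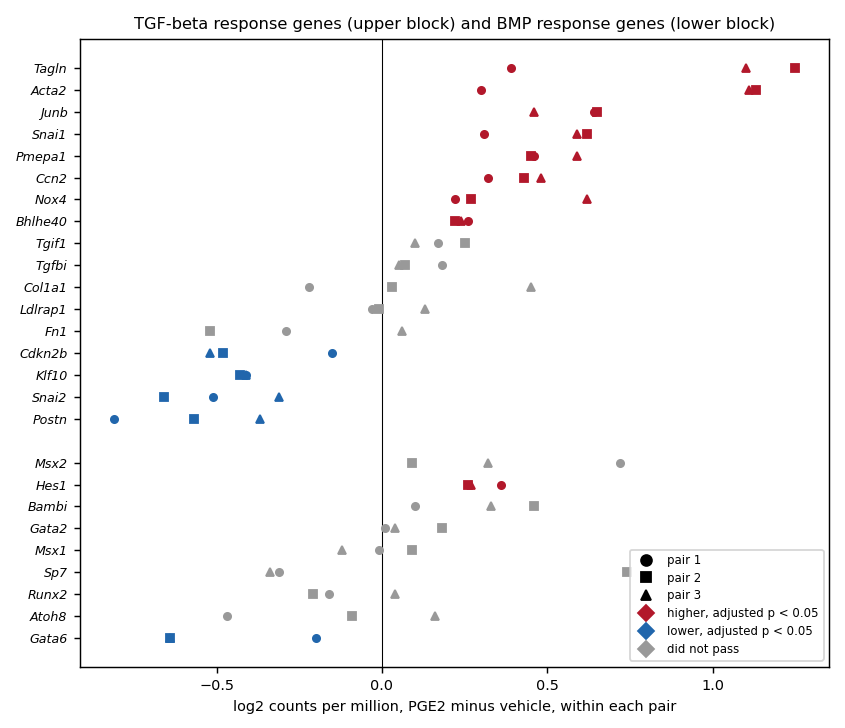
Difference in log2 CPM, PGE2 minus vehicle, within each of 3 pairs (x axis) for 17 of 18 TGF-beta response genes and 9 BMP response genes (y axis), coloured by the paired edgeR call. Junb lies at 0.64, 0.65 and 0.46, and each called gene has its 3 pairs on 1 side of 0.

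Of 12 BMP response genes listed, 9 were tested, and in the paired fit Hes1 rose (0.30 ± 0.0867) and Gata6 fell (-0.49 ± 0.126), which is 22.2% of those tested beside 14.4% of all genes. Without pairing none passed in edgeR or limma-voom, 2 had an unadjusted edgeR p under 0.05, and DESeq2 called 1 (11.1%, beside 6.14% of all genes). Gata6 was at 8.09, 10.2 and 10.0 CPM with vehicle and 7.02, 6.55 and 6.42 CPM with PGE2, with no overlap (edgeR adjusted p = 0.0283 paired). Hes1, a target of Notch as well as BMP signals, did not pass with the length correction (0.16, edgeR adjusted p = 0.184). Bambi, a decoy receptor, was at 0.29 ± 0.108 and Msx2 at 0.45 ± 0.284, and neither passed in the paired fit.

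Among other modulators of the pathway, 24 of 27 were tested, and 2 rose and 4 fell in the paired fit (25.0%), beside 14.4% of all genes. Without pairing none passed in edgeR or limma-voom, 6 had an unadjusted edgeR p under 0.05, and DESeq2 called 3 (12.5%). Lrrc32 encodes GARP, which anchors latent TGF-beta at the cell surface. It was at 649, 563 and 536 CPM with vehicle and 864, 864 and 953 CPM with PGE2, a change of 0.62 ± 0.0958 with no overlap (edgeR adjusted p = 0.00269 paired, 0.0686 unpaired). The BMP antagonist Nbl1 went from 131, 154 and 165 CPM to 167, 193 and 221 CPM (0.37 ± 0.0679, edgeR adjusted p = 0.00699 paired). The BMP co-receptor gene Rgma was at 79.7, 107 and 121 CPM with vehicle and 62.4, 77.4 and 91.1 CPM with PGE2 (-0.41 ± 0.0692), and its relative Rgmb also fell (-0.36). Itgav, the alpha chain of integrins that release latent TGF-beta, was at 332, 273 and 195 CPM with vehicle and 205, 172 and 178 CPM with PGE2 (-0.50 ± 0.108), and the proprotein convertase Pcsk6 fell as well (-0.42).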

How the data were processed

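The authors deposited whole-number counts per gene for 6 libraries, 3 per group, keyed by Ensembl gene and symbol, on build mm10 per the submitters' processing notes. Which aligner, counter, strand setting and annotation release they used is not given in the sources used here; genes with overlapping exons therefore have uncertain values. Members and lists were chosen with earlier results of these data known. The rule gave all values for members past the threshold in either fit and the most abundant of each role; Tgfb1, Id1 and the examples that follow the library number were added after their values were seen; other pathway genes were up to 4 per list with the smallest paired p.

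Counts were tested in R version 4.3.3 with edgeR version 4.0.16 (filterByExpr, trimmed mean of M values, robust quasi-likelihood test, Benjamini-Hochberg over 15186 genes, threshold 0.05). Every log2 fold change sets PGE2 against vehicle, with a standard error of its size over the root of F. CPM used scaled library sizes; positions and transcript lengths came from GENCODE M21 (GRCm38, also called mm10), which lacked Gdf1. The labels number the libraries in both groups but name no shared animal. Deviations of log2 CPM from group means correlated at 0.621, 0.169 and 0.422 between same-numbered libraries, all above the limit of 0.1 set for pairing. The numbers were treated as pairs on that rule. PGE2 library 2 correlated at 0.252 with vehicle library 3, and PGE2 library 3 at 0.145 with vehicle library 2. Deviations cancel out within each group, so these correlations depend on each other. The rule therefore could not show that the libraries numbered 2 are a pair. The length correction added a lowess trend on transcript length (span 0.3) to the offset. Alternatives used DESeq2 version 1.42.0 and limma version 3.58.1, other scalings, no filter and left-out libraries. The fits were tested on simulated data. No library repeated another within sampling noise, with chi-square values of at least 19.4 per degree of freedom between libraries of a group. Some genes are not reported here by name and are left out of the figures; counts over lists include them.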

Additional observations from a re-analysis of the deposited data

How the results depend on the processing

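Without pairing, 0 members, 1 TGF-beta response gene, 0 BMP response genes, 0 other modulators and 52 of all genes passed in edgeR. In that order the counts were 13, 13, 2, 6 and 2189 with the replicate block, 0, 0, 0, 0 and 15 with the length correction, and 19, 11, 2, 9 and 2549 with both. They were 0, 2, 0, 0 and 65 with library totals, 1, 3, 0, 1 and 285 with no filter on low counts, 5, 9, 1, 3 and 932 with DESeq2, 14, 12, 1, 6 and 1934 with DESeq2 and the block, and 0, 0, 0, 0 and 13 with limma-voom. Leaving out 1 library gave 0 to 1 members, 0 to 2 TGF-beta response genes, 0 to 1 modulators and 0 to 120 of all genes (120 without PGE2 library 1, 30 without vehicle library 1, 0 without any of the other 4). Leaving out a pair (1, 2 or 3) with the block gave 10, 9 and 21 members, 12, 10 and 12 TGF-beta response genes, 1, 0 and 3 BMP response genes, 5, 4 and 12 modulators, and 1372, 1160 and 5097 of all genes. Scaling by relative log expression left each count within 1.5 times. No scaling moved the median log2 fold change of all genes by more than 0.044. Among the 23 members followed through every alternative, log2 fold changes near 0, none of them past the threshold, turned sign for Grem1 (-0.00051 with library totals, -0.04 without pair 3, -0.1 to 0.29 without single libraries), Smad4 (0.0048 without pair 1, -0.08 to 0.04 without single libraries), Tgfb3 (0.00059 without pair 1, -0.22 to 0.15 without single libraries) and Tgfbr2 (0.14 with the length correction, 0.15 with block and length correction, 0.0017 without pair 2, -0.26 to 0.13 without single libraries). Of all 57 members, 8 had opposite signs with the block alone and with block and length correction, none of them called in either. The cause was not tested. Bmp2, with 33 to 129 counts per library, and the members at under 1 CPM are limited by depth.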
